A study of Bos taurus with 6 samples.

Results

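The regions described here are 6108 low-methylated CpG-poor windows of the cattle genome, each 500 bp long and together 3054 kb. They were chosen by their methylation level over all 6 libraries of the study, taken as the methylated reads divided by all reads at the CpGs of a window. A window was kept when it held 6 to 15 distinct CpGs and at least 30 reads summed over the libraries, had a level of 10% to 40%, and lay between neighbouring windows that both had levels of 60% or more and at least 10 reads. There were 4318570 windows with at least 1 CpG on the 29 autosomes, and 710775 of them were CpG-poor, that is, held 6 to 15 CpGs and 30 or more reads. Of the CpG-poor windows, 265987 had 2 highly methylated neighbours, and the 6108 were 2.30% of these and 0.859% of all CpG-poor windows.

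Methylation was read by whole-genome bisulfite sequencing (WGBS) in rumen epithelial primary cells (REPC) cultured from the lining of the first stomach chamber of 1 two-week-old Holstein bull calf that had received milk replacer and no other feed. The groups were 3 control libraries and 3 libraries of REPC given 5 mM butyrate, a fatty acid of rumen fermentation and an inhibitor of histone deacetylases, for 24 h. All 6 libraries thus shared 1 animal, and the study's methods call them 3 biological replicates per condition. No source used here says whether they came from separate cultures, so the spread between libraries may be technical. Butyrate replicates 1 and 3 were run on lane 5, whereas butyrate replicate 2 and the 3 controls were run on lane 6.

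In vertebrate genomes most CpGs are methylated, and the stretches without methylation are mostly the CpG-dense islands at the starts of genes. Short dips to a partial level in CpG-poor DNA form another class. In other species such dips often coincide with distal regulatory elements bound by transcription factors. A partial level in a culture can mean that some cells or alleles are methylated and others not, or that CpGs a few bases apart differ, and both were looked at below as far as single CpGs allow. Genes, histone marks and the DNA sequence at these windows were not analysed here, so the windows are named by their methylation and CpG content and not as enhancers.

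Depth limited what a single window can show. Each library held 18793438 to 23842285 reads summed over CpGs, where 1 read can count at more than 1 CpG and the 2 strands of a CpG were summed. A low-methylated CpG-poor window had a median of 47 reads in all 6 libraries together, with 10% of the windows under 32 reads and 10% over 81. The median was 5.14 reads per CpG, beside 5.25 in all CpG-poor windows with highly methylated neighbours. Within 1 library the median was 7 to 9 reads per window. Taking for each window the library that read it least, the median was 2 reads. Counting error is therefore a fraction of a percentage point for a level over all windows in a library, and far larger for 1 window in 1 library.

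The pooled level of the 6108 windows had a median of 30.8%, and the middle of the range ran from 22.9% to 36.1%. By 10-point bands, 1085 windows lay at 10% to 20%, 1754 at 20% to 30% and 3269 at 30% to 40%. These counts followed the lower tail of a single distribution. In bins of 5 points, the number of CpG-poor windows with highly methylated neighbours rose from 294 at 0% to 5% up to 54013 at 90% to 95%, with no separate peak between 10% and 40%. The share in the 10% to 40% range was 2.39% of 180501 windows with 30 to 59 reads, 2.09% of 81582 with 60 to under 120 reads and 2.07% of 3904 with 120 or more reads. Low level was thus only slightly less frequent among windows with more reads.

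Windows just on either side of the thresholds were alike by construction. At the lower threshold, the windows at chromosome 13, 79762001 to 79762500, and chromosome 14, 17092001 to 17092500, both had a pooled level of 10%, and those at chromosome 18, 6689501 to 6690000 (9.91%), and chromosome 24, 4768001 to 4768500 (9.89%), were left out. At the upper threshold, the windows at chromosome 3, 82798001 to 82798500, and chromosome 18, 19127501 to 19128000, had 40%, and those at chromosome 22, 42410501 to 42411000 (40.1%), and chromosome 19, 21079001 to 21079500 (40.2%), were left out.

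Because the level itself chose the windows, part of a low value can be sampling error. The choice was therefore repeated on 5 libraries, and the level was read in the sixth, for each library in turn. Each set of 5 libraries chose 4433 to 4733 windows, of which 82.7% ± 0.783 (SD over the 6 choices) were among the 6108. The level of these windows was 28.9% in the libraries that chose them and 33.0% ± 0.358 in the library left out, with a range of 32.7% to 33.7%. In the left-out library, the windows beside them had 74.7% ± 0.173, and all CpG-poor windows with highly methylated neighbours had 80.4% ± 0.367. The windows were low in all 6 libraries that had no part in the choice, about 4 points less low than in the libraries that did.

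**Figure D1:**
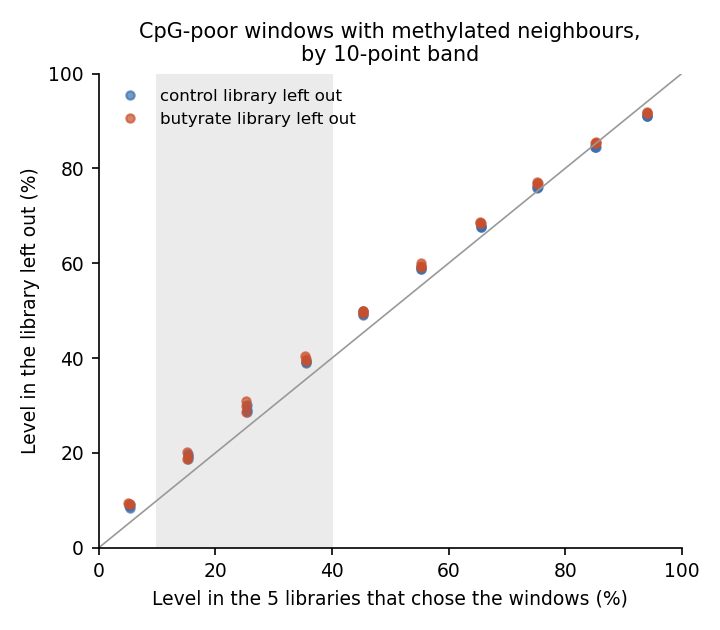
Level of CpG-poor windows with highly methylated neighbours in the library left out of their choice (vertical axis, %) against their level in the 5 libraries that chose them (horizontal axis, %), with 1 point per 10-point band and left-out library, control in blue and butyrate in red, the line of equal values in grey and the 10% to 40% range shaded. The low bands lie above the line (15.3% became 19.3% and 35.6% became 39.5%) and the highest band lies below it (94.0% became 91.4%).

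The same drift towards the middle was seen over the whole range of levels. Windows of the 10% to 20% band had 15.3% in the 5 libraries and 19.3% ± 0.549 (SD over 6 libraries) in the left-out library, those of the 20% to 30% band had 25.4% and 29.6% ± 0.893, and those of the 30% to 40% band had 35.6% and 39.5% ± 0.506. The bands kept their order in the left-out libraries. Among the chosen windows with at least 10 reads in the left-out library (1598 to 2036 windows), 68.9% ± 0.778 had a level of 40% or less there and 9.23% ± 0.759 had 60% or more. Of the windows beside them, 3.07% ± 0.350 had 40% or less. The most common 10-point band in the left-out library was 20% to 30%, with 20.3% ± 0.721 of the windows, and 11.6% ± 0.271 had less than 10%.

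Inside the window the level was lowest at the centre. Within 50 bp of the centre the level was 27.5% in the library left out of the choice, and it was 33.9% at 100 to 200 bp and 41.3% at 200 to 250 bp, the edge of the window. Just past the edge, at 250 to 300 bp, it was 64.9%, followed by 70.4% at 300 to 400 bp and 74.9% at 400 to 500 bp. The rule asks for a low window between high neighbours on a fixed grid, so a step at the edge of the window follows from the choice. A dip off the centre can lower a neighbour and drop out, so the choice also favours a lowest level at the centre. How much of the central minimum comes from the choice was not tested. Other CpG-poor windows with highly methylated neighbours were level over the same span, with 81.4% at the centre and 83.2% at 250 to 300 bp. At 500 to 750 bp, still within the neighbours that the rule used, the low-methylated windows reached 78.1% in the left-out library. In the 6 libraries that chose the windows they reached 79.4%, and the others 82.1%.

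**Figure D2:**
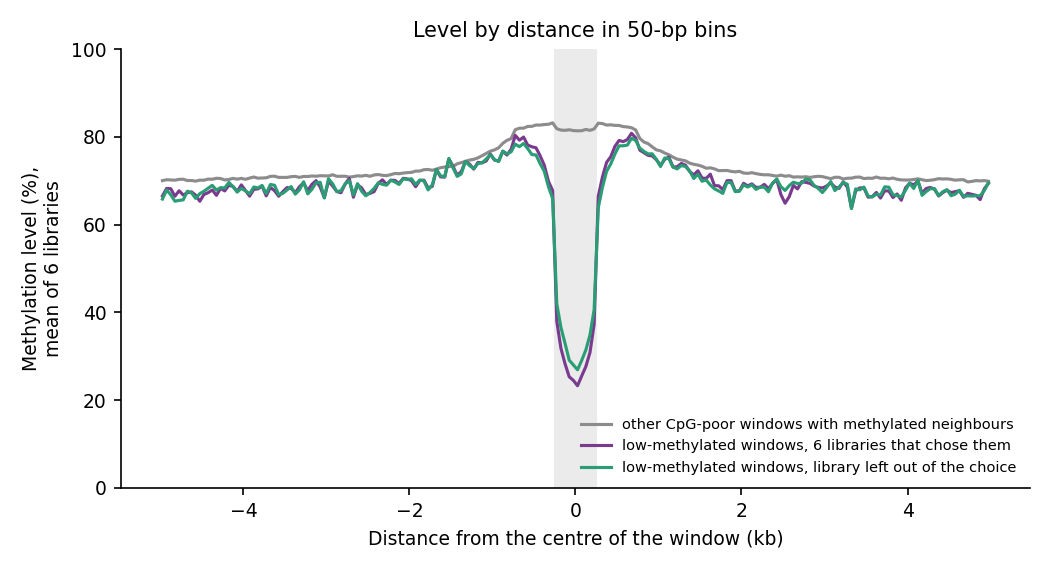
Methylation level (%, mean of 6 libraries) in 50-bp bins by distance from the centre of the window (kb), for low-methylated CpG-poor windows in the libraries that chose them (purple) and in the library left out of the choice (green) and for other CpG-poor windows with highly methylated neighbours (grey), with the window itself shaded. The dip reached 23.9% and 27.5% within 50 bp of the centre, and beyond the neighbours the curves came within a few points of each other.

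Beyond the neighbouring windows, where the rule used nothing, the DNA around the dips was moderately methylated. The level was 71.5% at 1 to 2 kb, 68.9% at 2 to 3 kb and 67.7% at 3 to 5 kb in the left-out library, beside 73.8%, 71.2% and 70.5% around the other windows. The surroundings of the dips were thus about 2 to 3 points lower. CpGs were slightly more frequent in the window than around it, with 2.09 per 100 bp at the centre, 1.83 at the edge of the window and 1.65 at 3 to 5 kb. In the other windows there were 1.98 at the centre and 2.06 at the edge. The rule limits the number of CpGs in a window, so the values inside it are a description.

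Within the windows most CpGs were either low or intermediate, and few were high. The 6108 windows held 60657 CpGs, of which 34119 had 5 or more pooled reads. Of these, 53.1% had a level of 20% or less, 38.7% lay between 20% and 80%, and 8.18% had 80% or more. In the windows beside them the shares were 4.86%, 31.9% and 63.3%. The CpG-dense windows of low level (over 30 CpGs and under 10%, 25488 windows) had 98.4% of their CpGs at 20% or less. With the minimum raised to 10 reads, which left 5417 CpGs of the low-methylated CpG-poor windows, the shares were 55.1%, 41.0% and 3.93%. Since the window level was used by the rule, these shares are a description.

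How unlike the CpGs of 1 window were depended on the reads asked of each CpG. Of 4753 windows with at least 4 CpGs of 5 or more reads, 1879 (39.5%) held both a CpG at 20% or less and a CpG at 80% or more, and 2850 (59.96%) held no CpG at 80% or more. With 10 or more reads, 421 windows had at least 4 CpGs, and 67 of them (15.9%) held both. When each window was cut into 2 pieces of 250 bp, both pieces had 10 or more reads in 4186 windows. Both were at 40% or less in 1844 of these (44.1%), and 1 piece was at 60% or more in 759 (18.1%). With 30 or more reads in both pieces, these were 244 (47.6%) and 61 (11.9%) of 513 windows. How much of these shares is counting error was not tested. Whether 2 CpGs differed on the same DNA molecule cannot be read from counts per cytosine.

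The place of the windows on the 500-bp grid mattered as well. A grid that started 250 bp later gave 6163 windows by the same rule, and 966 of the 6108 windows (15.8%) shared 250 bp with one of them. A dip that straddles 2 windows lowers both and can then fail the rule on neighbours. Depth and counting error can move the choice as well: with the same minimum of 30 reads, 5 libraries chose 62.1% ± 2.08 (SD over the 6 choices) of the 6108 windows again, and the share of each was not tested. The windows are thus not a full list of dips.

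The windows were found on all 29 autosomes. Their number ran from 113 on chromosome 27 to 375 on chromosome 19, and per Mb from 1.10 on chromosome 6 to 5.85 on chromosome 19, with 5.80 on chromosome 25 and 4.73 on chromosome 18. The number per Mb followed that of CpG-dense windows of low level (Pearson's r = 0.885 over 29 chromosomes, which share the 6 libraries and differ in CpG density). Per 1000 CpG-poor windows with highly methylated neighbours the chromosomes were more alike. The frequency ran from 18.4 on chromosome 12 to 29.5 on chromosome 28, and its r with CpG-dense windows per Mb was 0.279 over the same 29 chromosomes.

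Close to CpG-dense windows of low level, low-methylated CpG-poor windows were less frequent. Per 1000 CpG-poor windows with highly methylated neighbours there were 12.1 at 0.5 to 1 kb (7 windows), 19.1 at 1 to 2 kb, 19.7 at 2 to 5 kb, 21.7 to 23.1 in the 4 distance classes from 5 to 100 kb, and 25 beyond 100 kb. The median distance to such a window was 46 kb, beside 42 kb for other CpG-poor windows with highly methylated neighbours. Of the low-methylated windows, 973 (15.9%) lay within 10 kb of a CpG-dense window of low level, and 1.65% within 2 kb. Of the 23192 CpG-poor windows of 10% to 40% whose neighbours had been read but were not both highly methylated, 16.9% lay within 2 kb of one. The rule on neighbours keeps windows away from CpG-dense windows of low level, so this gap follows from the choice.

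The frequency also varied with the methylation of the wider surroundings. The level of the 100 kb around a window, without the window itself and the 3 windows on each side, had a median of 67.5%, beside 69.98% for other CpG-poor windows with highly methylated neighbours. Per 1000 of all CpG-poor windows with highly methylated neighbours, the frequency was 29.9 where the surroundings had 50% to 60%. It was 28.6 at 60% to 65%, 25.8 at 65% to 70%, 22.2 at 70% to 75%, 18.9 at 75% to 80% and 11.7 at 80% or more. Below 50% it was 26.9 (260 windows). By CpG number, the frequency was 25.8 per 1000 at 6 CpGs and 20.5 to 22.6 at 11 to 15 CpGs.

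**Figure D3:**
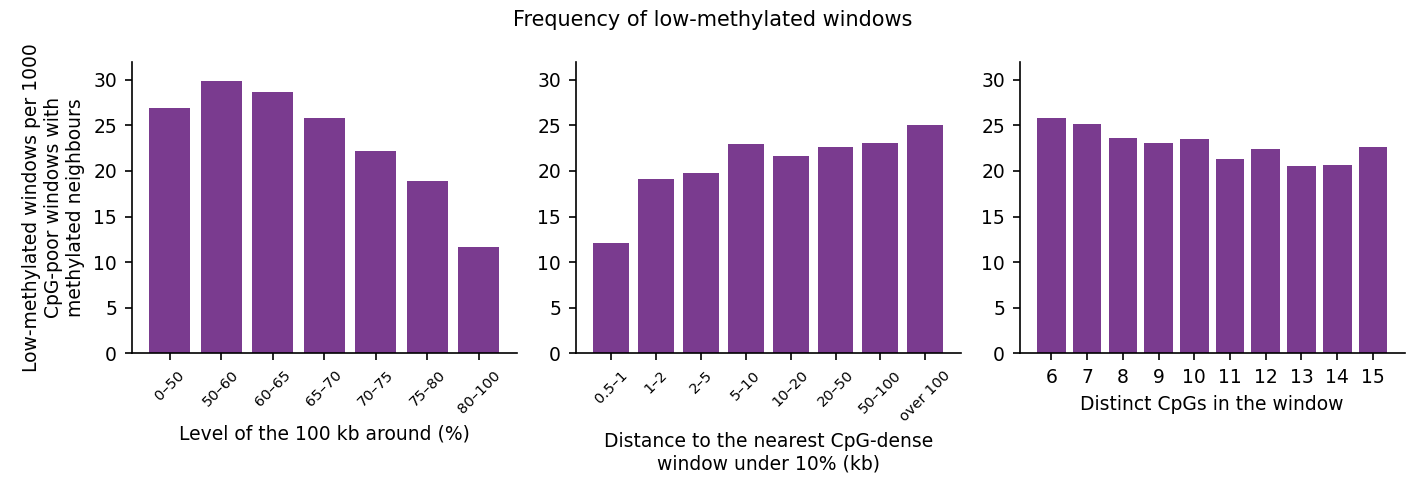
Number of low-methylated CpG-poor windows per 1000 CpG-poor windows with highly methylated neighbours, by the methylation level of the 100 kb around (left, %), by the distance to the nearest CpG-dense window under 10% (middle, kb) and by the number of distinct CpGs (right). The bars are counts over all 6 libraries without error bars, and the frequency falls from 29.9 at 50% to 60% to 11.7 at 80% or more in the left panel.

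The spacing of the windows was much like that of the other windows to them at short range, and slightly closer further out. Another low-methylated window was within 2 kb of 2.80%, beside 2.81% of other CpG-poor windows with highly methylated neighbours. Another low-methylated CpG-poor window was within 10 kb of 860 (14.1%), beside 12.8% of other CpG-poor windows with highly methylated neighbours, and within 50 kb of 47.1%, beside 43.3%. Of 2529 bins of 1 Mb, 975 held none, 514 held 5 or more and 120 held 10 or more, for 1410 windows in the latter. The bin with the most was 146000001 to 147000000 of chromosome 1, with 23 windows among 454 CpG-poor windows with highly methylated neighbours (50.7 per 1000). It was followed by bins with 19 each, at 25000001 to 26000000 of chromosome 18 (50 per 1000), 53000001 to 54000000 of chromosome 19 (60.5 per 1000) and 14000001 to 15000000 of chromosome 23 (101 per 1000). In the whole autosomal genome the frequency was 23.0 per 1000.

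The bin on chromosome 23 had the highest frequency of these with few CpG-dense windows of low level around, 3 against 23 to 38 in the other 3 bins. Its windows had a median of 42 reads, and the level of the left-out libraries there was 36.2%. In the bin on chromosome 1, the left-out level was 30.9%. Control replicates 1, 2 and 3 had 25.2%, 35.1% and 32.8% over the windows of that bin, and butyrate replicates 1, 2 and 3 had 28.8%, 30.1% and 26.6%. The groups overlapped in this bin and in each of the other 3.

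One aim of the study was to explore what butyrate changed in these cells. Over the 6108 windows, the level was 28.9%, 28.9% and 28.5% in control replicates 1, 2 and 3. It was 29.6%, 29.2% and 28.99% in the butyrate replicates in the same order. All 3 butyrate libraries lay above the 3 controls. The control mean was 28.8% ± 0.2002 (SD, n = 3) and the butyrate mean 29.3% ± 0.326 (SD, n = 3), which differ by 0.4996 percentage points. These values rest on 50579 to 62213 reads per library, and the 95% Wilson interval of control replicate 1 ran from 28.5% to 29.3%. An interval of 1 library does not give the counting error of the difference between the group means. Such intervals cover counting error only, since a read can count at several CpGs and may have duplicates. Lane cannot be told apart from treatment for butyrate replicates 1 and 3. On lane 6 alone, butyrate replicate 2 exceeded the control mean by 0.3999 points. With windows that started 250 bp later, the difference was 0.228 points and the groups overlapped, and they also overlapped when each window counted equally (0.444 points).

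Other CpG-poor DNA was higher in butyrate by a similar amount, and so was the level over all autosomal CpGs. Over all 710775 CpG-poor windows, which were not chosen by level, the means were 73.0% ± 0.0838 in control and 73.5% ± 0.143 in butyrate. The groups did not overlap. Their difference was 0.499 points, with a two-sided exact permutation p of 0.1, the smallest that 3 libraries against 3 can give. The other CpG-poor windows with highly methylated neighbours had 81.3% ± 0.0336 and 81.9% ± 0.0991, a difference of 0.630 points without overlap. The windows beside the low-methylated ones had 76.1% ± 0.106 and 76.4% ± 0.132, a difference of 0.270 points, again without overlap. The groups of these neighbours overlapped with 60 or 120 pooled reads, on the shifted grid, without very deep windows and with equal weights. The depth of the dip, the level of the low-methylated windows less that of the windows beside them, was -47.4 ± 0.201 points in control and -47.1 ± 0.257 in butyrate, and here the groups overlapped. CpG-dense windows of low level had 2.66% in both groups. Over all autosomal CpGs, which include those of the CpG-poor windows, the means were 65.99% ± 0.101 in control and 66.57% ± 0.102 in butyrate. Their difference was 0.585 points without overlap.

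**Figure D4:**
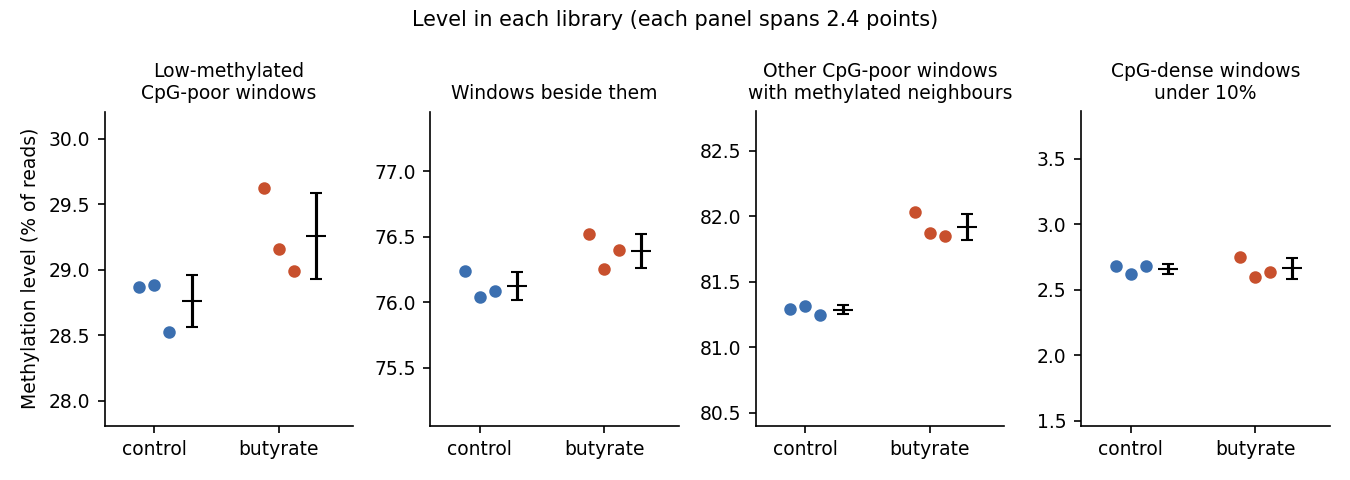
Methylation level (% of reads) in each of the 3 control (blue) and 3 butyrate (red) libraries, with the mean and SD in black, for low-methylated CpG-poor windows, the windows beside them, other CpG-poor windows with highly methylated neighbours and CpG-dense windows under 10%. Every panel spans the same number of points, and the butyrate libraries lie above the controls in the first 3 panels by 0.4996, 0.270 and 0.630 points and overlap them in the last.

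Classes of the low-methylated windows mostly did not separate the groups. By pooled level, the difference was -0.148 points at 10% to 20%, 0.768 at 20% to 30% and 0.412 at 30% to 40%, with overlap in each class. By depth it was 0.350 points in 4322 windows of 30 to 59 reads, with overlap, 0.569 in 1705 windows of 60 to under 120 reads and 1.15 in 81 windows of 120 or more reads, both without overlap. By CpG number it was 0.303 points at 6 to 8 CpGs and 0.416 at 9 to 11, with overlap, and 0.712 at 12 to 15, without. The 860 windows with another one within 10 kb had a difference of 0.899 points without overlap, and the 5248 without one had 0.433 with overlap. Whether the classes differ from each other was not tested.

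For single windows, methylated and unmethylated reads were regressed on treatment in a logistic model. The test was fitted on all 276656 autosomal 500-bp windows with 5 or more reads in every library, and p-values were adjusted over all of them by Benjamini-Hochberg. A window was called when the adjusted p (q) was under 0.05 and the pooled levels of the groups differed by more than 10 points. Of all windows 664 (0.24%) were called. The depth minimum left 1230 of the 6108 low-methylated CpG-poor windows, and 3 of them (0.244%) were called, all higher in butyrate. All calls were also higher with lane in the model (3, of which only the window on chromosome 13 was among the 3 above), without control replicate 1 (1) and without butyrate replicate 3 (2). Lower calls appeared in other settings, with 2 higher and 3 lower without control replicate 3, 1 and 2 without control replicate 2, 4 and 1 without butyrate replicate 1, 4 and 2 without butyrate replicate 2, 4 and 2 with replicate number in the model, and 0 and 1 with 10 reads in every library. Without 1 library, 1432 to 1588 low-methylated windows were tested. Of all 305208 to 335309 windows tested there, 625 to 689 were called. Of all 276656 windows, 600 were called with lane in the model and 796 with replicate number. With 10 reads in every library, 151 low-methylated windows were tested, and 523 of all 98728 windows were called. With treatment alone, all 6 libraries and 5 reads in each, the share was that of the background. There, 0.13% of all windows were called as higher and 0.11% as lower. At an unadjusted p under 0.05 there were 136 (11.1%) of the low-methylated windows and 9.56% of all windows. Of the low-methylated windows 83 (6.75%) were on the higher side and 53 (4.31%) on the lower, beside 5.4% and 4.16% of all windows. The groups did not overlap in 111 (9.02%) of the low-methylated windows, and in 8.78% of all windows. They were higher in butyrate in 67 of these (5.45%, beside 4.86% of all windows) and lower in 44 (3.58%, beside 3.92%). The other 4878 windows were too shallow for the test.

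The wide spread of single windows is seen in the size of their differences. Among the 1230 tested windows the median difference of butyrate from control was 0.456 points, 10% of the windows lay below -15.3 and 10% above 16.8, and 519 (42.2%) differed by more than 10 points. Of all tested windows 22.2% did so, and of CpG-poor windows with highly methylated neighbours and levels of 40% to 60%, 44.7% did. The spread between libraries of a group also exceeded binomial counting error, with every count taken as a separate molecule. A read can count at several CpGs of a window, which can raise this spread by itself. How much it did so was not tested. The dispersion of a window is the chi-square of its libraries within groups over 4 degrees of freedom. Counting error alone, with separate counts, would give a median of about 0.839. The median was 1.26 in the low-methylated windows, 1.03 in all tested windows and 1.18 at 40% to 60%. It was 1.22 in CpG-poor windows of 10% to 40% that failed the rule on neighbours, by their level or by too few reads. When replicates of a group were compared in pairs, chi-square over degrees of freedom was 1.47 to 1.69 in the low-methylated windows and 1.34 to 1.36 in all tested windows. The logistic test assumes separate counts with counting error alone, so its p-values are too small for these windows. By a quasi-binomial F test, which estimates the dispersion of each window, the q of the 3 called windows was 0.821 (chromosome 8), 0.462 (chromosome 13) and 0.864 (chromosome 29), and by limma it was 0.961 for each. In simulated counts for all tested windows, 200 windows were changed by 40 points. The F test recovered 1 of them, limma 0 and the logistic test 131, with 8 false calls by the logistic test. These simulated counts were separate and held counting error alone, with a median dispersion of 0.837, beside 1.26 in the low-methylated windows. How the tests perform at the depth and spread of the low-methylated windows was not tested, so these q do not weigh for or against a call.

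The called window with the smallest q lay at chromosome 8, 107512501 to 107513000, with 14 CpGs. Control replicates 1, 2 and 3 had 0 methylated of 9, 6 and 12 reads. Butyrate replicates 1, 2 and 3 had 66.7% of 9 reads, 19.0% of 21 and 46.2% of 26. Every butyrate library was above every control, but the 27 control reads of 0% allow a level of up to 11.1% (12.5% by the Wilson interval), for counting error only and as if every count were a separate molecule, and the butyrate libraries spread over more than 40 points. The pooled difference was 39.3 points (logistic regression, q = 0.00632). Within lane 6 it was 19.0 points, and the call was lost in that comparison and on leaving out control replicate 1, control replicate 3 or butyrate replicate 3.

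The second lay at chromosome 13, 54932501 to 54933000, with 10 CpGs and 1.5 kb from a CpG-dense window of low level. The controls again had no methylated read, among 10, 11 and 9 reads, and butyrate replicates 1, 2 and 3 had 23.1% of 13 reads, 41.2% of 17 and 44.4% of 9. The groups were apart, but this window and that on chromosome 8 were named among windows whose groups do not overlap. With the same reservation, the 30 control reads allow a level of up to 10% (11.4% by the Wilson interval). The pooled difference was 35.9 points (logistic regression, q = 0.0140), and within lane 6 it was 41.2 points. The call was lost on leaving out any 1 control or butyrate replicate 2.

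The third, named because it was the only other called window, lay at chromosome 29, 49603001 to 49603500. Controls 1, 2 and 3 had 17.6%, 15.8% and 27.8% of 17, 19 and 18 reads, and butyrate replicates had 100% of 7 reads, 42.9% of 14 and 80% of 5. The high values were those of the libraries with the fewest reads. The pooled difference was 45.01 points (logistic regression, q = 0.0402), and within lane 6 it was 22.5 points with q = 0.614. Without butyrate replicate 2 it was 71.3 points (q = 0.00396). The call was lost on leaving out control replicate 1 or 2 or butyrate replicate 1 or 3.

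No low-methylated window was called as lower in butyrate by the logistic regression on treatment alone with all 6 libraries and 5 reads in each. The closest was at chromosome 16, 52663501 to 52664000, where controls had 40% of 10 reads, 35.7% of 14 and 75% of 16, and butyrate replicates had 23.1% of 13, 0% of 12 and 20% of 15. The pooled difference was -37.5 points (logistic regression, q = 0.0793). It was called as lower with 10 reads in every library (q = 0.0496), with replicate number in the model (q = 0.0487) and without control replicate 2 (q = 0.0412). It was not called on leaving out any other library, and without control replicate 3 the difference was -22.5 points (q = 0.503). Next was chromosome 25, 39469501 to 39470000, where controls had 62.5%, 57.1% and 50% of 8, 7 and 10 reads, and butyrate replicates had 28.6%, 0% and 10% of 7, 7 and 10. Here the pooled difference was -43.5 points (q = 0.138). Both windows were chosen among those whose groups do not overlap, and they had at most 16 reads per library. Over all control reads their levels were 52.5% and 56%, above the 40% limit of the rule. Both windows thus entered the choice through their butyrate reads. The 3 called windows entered it through 1 group as well. Over all control reads those on chromosomes 8 and 13 had 0%, below the 10% limit, and they entered through their butyrate reads. Over all butyrate reads the window on chromosome 29 had 65.4%, above the 40% limit, and it entered through its control reads.

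**Figure D5:**
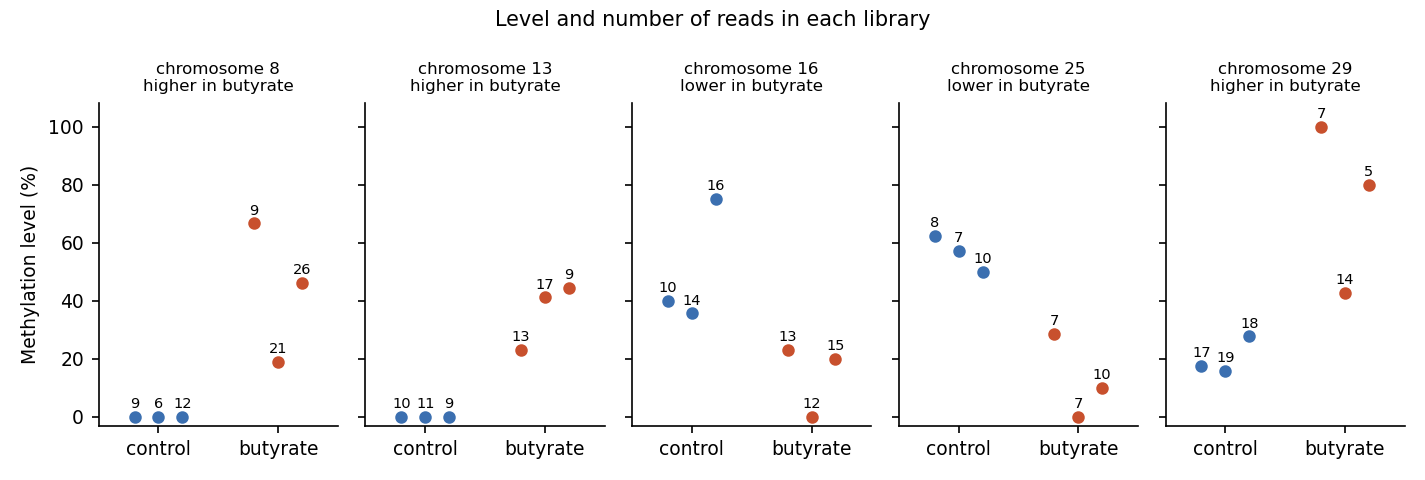
Methylation level (%) in each control (blue) and butyrate (red) library, replicates 1 to 3 from left to right, in the 3 low-methylated windows called as higher in butyrate (chromosomes 8, 13 and 29) and the 2 with the smallest p among those lower in butyrate whose groups do not overlap, which were not called (chromosomes 16 and 25). The number at each point is its reads, 5 to 26. The groups do not overlap in any panel, which the rule for naming windows fixed for chromosomes 8, 13, 16 and 25.

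Of the 4 best-read windows, 2 varied by less than the counting error of a library. At chromosome 17, 25044001 to 25044500 (11 CpGs, 624 reads), controls 1, 2 and 3 had 36.8%, 33.9% and 33.3% and butyrate replicates 1, 2 and 3 had 34.5%, 32.3% and 37.6%. The 95% Wilson interval of control replicate 1 there ran from 28.6% to 45.8%. At chromosome 14, 2298001 to 2298500 (14 CpGs, 573 reads), controls had 18%, 22.7% and 20.8% and butyrate replicates had 18.8%, 15.7% and 17.6%. The groups overlapped in both, and no library of either left the 10% to 40% range.

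The other 2 varied more. At chromosome 22, 2879501 to 2880000 (14 CpGs, 591 reads), controls had 36.7%, 34.5% and 39.3% and butyrate replicates had 32.7%, 44.9% and 47.7%. At chromosome 5, 114119501 to 114120000 (10 CpGs, 446 reads), controls had 21.0%, 8.06% and 15.7% and butyrate replicates had 17.9%, 13.7% and 20.2%. The groups overlapped in both. These 4 windows had 40.9 to 56.7 reads per CpG, beside the median of 5.14, so they stand apart from the rest in depth. In total, 10 of the 6108 windows lay among the 1 in 1000 CpG-poor windows with the most reads per CpG (above 59.4).

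At the usual depth, the best-read windows scattered widely between libraries of a group. At chromosome 26, 23382501 to 23383000 (15 CpGs, 141 reads), controls had 47.4%, 28.1% and 42.9% and butyrate replicates had 54.5%, 23.8% and 26.3%. At chromosome 5, 119346501 to 119347000 (12 CpGs, 112 reads), controls had 57.1%, 15% and 43.8% and butyrate replicates had 53.3%, 57.1% and 19.2%. In both windows the groups overlapped over most of their range.

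At chromosome 18, 42942001 to 42942500 (15 CpGs, 103 reads), controls had 18.8%, 25% and 25% and butyrate replicates had 53.3%, 31.2% and 15%, again with overlap. At chromosome 16, 33859501 to 33860000 (14 CpGs, 135 reads), controls had 34.8%, 37.5% and 42.9% and butyrate replicates had 32.4%, 16.7% and 10.5%. In the latter the groups did not overlap, but the window was not called (logistic regression, q = 0.553). These 4 were chosen after the data were seen, as the best-read windows with at most 10 reads per CpG.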

How the data were processed

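The authors made 6 WGBS libraries with a low-input kit that primes bisulfite-converted single strands at random. Per the study's methods and the labels, they trimmed reads with Trim Galore 0.4.1, mapped them with bowtie2 and extracted CpG methylation with Bismark. The assembly is given as UMD3.1.1 in the methods and UMD3.1 in the labels, and the sample labels also differ from the methods and the series text in read length and run type. The sources used here do not give the conversion rate, nor whether duplicates were removed or read ends clipped, each of which could shift a level. The deposited values were raw counts of methylated and unmethylated reads per CpG cytosine, without a header. The methylated column was recognised from its values, since it held most of the reads overall and few in CpG-dense windows.

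Files were joined by position, cytosines at adjacent positions were taken as 1 CpG, and reads were summed in 500-bp windows from position 1. Groups, replicate numbers and lanes came from the labels. Windows with 5 or more reads in every library were tested by logistic regression with a likelihood-ratio chi-square test and Benjamini-Hochberg q, after being tested on simulated data. The 4 best-read windows were the members with the highest count in their lowest library outside the 1 in 1000 CpG-poor windows with the most reads per CpG (above 59.4), at most 1 per chromosome, and the other named windows had the 2 smallest p in each direction among those whose groups do not overlap. Bins named were the 3 richest, with ties added.

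Alternatives were 60 and 120 pooled reads, a shifted grid, cytosines counted singly, neighbours at 70%, removal of very deep windows, equal weights, lane 6 alone, replicate number or lane in the model, 10 reads per library, cytosines with 10 reads, a quasi-binomial F test, limma on log2((methylated + 1)/(unmethylated + 1)), a 20-point difference and leaving out each library. The windows, lists and tests were chosen with earlier results of these data known. Planned gene lists, motifs and sequences were not used here, since no genome or annotation of the build of the files was used. Computations used Python 3.11.15, NumPy 2.4.6, SciPy 1.17.1, pandas 2.3.3, Matplotlib 3.10.9, R 4.3.3 and limma 3.58.1.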

Additional observations from a re-analysis of the deposited data

How the results depend on the processing

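The number of windows depended most on the depth minimum. Which windows were chosen also depended on the grid. The shifted grid gave 6163 windows, and 15.8% of the 6108 windows shared 250 bp with one of them. There were 1786 low-methylated windows with 60 pooled reads, 81 with 120, 3193 with each cytosine counted singly and 3249 with neighbours at 70% or more. On 5 libraries there were 4433 to 4733, or 5542 to 5805 with a minimum of 25 reads, an alternative chosen after seeing the data. Their level, 29.01% over the 6 libraries, was 32.3% with 120 reads, 28.6% on the shifted grid and 29.8% with equal weights. In a left-out library it was 31.6% with 60 reads and 33.5% with 25.

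The butyrate difference of the low-methylated windows was positive in each alternative that gave one (none was computed for cytosines counted singly or neighbours at 70%), at 0.228 to 0.676 points except 1.15 with 120 reads, and at 0.317 to 0.632 without any 1 library. That of the windows beside them was 0.735 points with 120 reads, 0.0931 with equal weights and 0.134 on lane 6, and that of all CpG-poor windows was 0.711 with 120 reads, where the groups overlapped. No pairing by replicate number was seen in the deviations of single windows from their group mean. Between libraries of the same number these had correlations of -0.0025, 0.0054 and -0.0012 over 98728 windows. Counting error lowers such correlations, so they cannot tell whether the samples were paired. Taken as a replicate block, the replicate numbers cannot change the 0.4996 points, which a balanced design fixes. They gave 796 called windows, 6 of them low-methylated.

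Of 276656 windows, 664 were called by logistic regression, 61 by the quasi-binomial F test and 0 by limma (13710 at an unadjusted p under 0.05), and 54 of the 7860 windows with cytosines of 10 reads. With 10 reads per library, 523 of all 98728 windows were called. Of the low-methylated windows, 1 of 151 was called with 10 reads per library, 0 of 20 with cytosines of 10 reads (2 at an unadjusted p under 0.05), and 0 of 1230 by the F test or limma. At an unadjusted p under 0.05 there were 52 by the F test (4.23%, beside 5.80% of all windows) and 83 by limma (6.75%, beside 4.96%). Leaving out 1 library gave 625 to 689 called windows, 1 to 6 of them low-methylated (1 without control replicate 1, 6 without butyrate replicate 2). The cause was not tested.

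Small differences of uncalled windows changed sign. On chromosome 17 the pooled difference was -0.272 with cytosines of 10 reads, -2.41 on lane 6 and -1.37 to 1.46 without 1 library. On chromosome 5 the deep window had -1.28 on lane 6 and -0.358 to 5.16 without 1 library, and the other had 18.5 on lane 6 and -13.2 to 16.6 without 1 library. Those on chromosomes 26 and 18 (42942001) had -13.0 to 3.49 and -0.855 to 18.9 points without 1 library.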

Other observations

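On the X chromosome, which was kept apart because the calf carries 1 copy of it, the same choice gave 66 windows of 3009 CpG-poor windows with highly methylated neighbours (2.19%, beside 2.30% on the autosomes). Control replicates 1, 2 and 3 were at 27.0%, 29.9% and 27.8% over these windows, and butyrate replicates 1, 2 and 3 had 31.2%, 34.9% and 29.6%. The control mean was 28.2% ± 1.47 (SD, n = 3) and the butyrate mean 31.9% ± 2.69 (SD, n = 3), and the groups overlapped.

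On the autosomes, 666 CpG-poor windows with highly methylated neighbours had a pooled level below 10% and so lay under the range described above. In windows below 10% in 5 libraries, the level was 5.31% there and 9.07% ± 0.351 (SD over 6 libraries) in the library left out. The 23192 CpG-poor windows of 10% to 40% whose neighbours had been read but were not both highly methylated were also compared. They had a control mean of 26.5% ± 0.0855 (SD, n = 3) and a butyrate mean of 26.8% ± 0.113 (SD, n = 3), without overlap of the groups. Their 100 kb around had a median level of 64.3% and was below 60% for 34.9% of them, beside 21.3% of the low-methylated windows with highly methylated neighbours and 16.6% of other CpG-poor windows with such neighbours.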
